A study of Mus musculus with 6 samples.

Results

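The matrix metalloproteinases (MMPs), the ADAMTS proteinases with their ADAMTS-like relatives, and the tissue inhibitors of metalloproteinases (TIMPs) were examined in primary mouse renal fibroblasts. Members were the rows of the deposited gene table whose symbol is Mmp, Adamts, Adamtsl or Timp followed by a number and at most 1 letter. This gave 51 of the 34745 genes in the table, namely 23 MMP, 19 ADAMTS, 5 ADAMTS-like and 4 TIMP genes. The study asked how helper T cells that secrete interleukin-17 (Th17 cells) act on kidney fibroblasts. Wild-type fibroblasts grown out of digested mouse kidney were cultured without T cells (lone fibroblasts, 3 libraries). In the other group they attached for 6 h and then shared medium for 24 h with Th17 cells held in a porous insert above them (cocultured fibroblasts, 3 libraries). The Th17 cells came from splenic CD4+ T cells induced with interleukin-1β, interleukin-6, interleukin-23 and an antibody against interferon-γ, and the lone cultures were labelled as untreated. No library was cocultured with T cells of another kind, so effects of the Th17 state and of activated T cells in general cannot be told apart. Time in culture, medium and use of an insert were not given for the lone cultures in the sources used here. Any difference in these cannot be told apart from coculture either. The study's methods name Balb/c mice without tying that strain to these cultures, and age and sex of the donor mice were not given in the sources used here, nor was it stated whether the 3 libraries within a group were independent cultures or animals. SD, SE and p therefore describe the spread between these libraries.

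MMPs are zinc-dependent endopeptidases that cleave collagens, gelatin, proteoglycans and many soluble proteins. Most are secreted as inactive proenzymes, and some are tethered to the cell membrane, where they activate other MMPs. The ADAMTS proteinases carry a reprolysin-type catalytic domain with thrombospondin repeats and process procollagens, large proteoglycans and other matrix proteins, whereas ADAMTS-like proteins lack the catalytic domain. TIMPs block the active site of the enzymes, and TIMP3 is the member that stays bound to the matrix and also inhibits ADAM and ADAMTS proteinases. In kidney the balance of these enzymes and inhibitors takes part in the turnover of interstitial matrix, and stromal cells are known to produce MMPs in response to inflammatory cytokines.

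The libraries held between 12050529 and 13209581 counts, and the groups separated on the first principal component, which held 76.8% of the variance. Of 10 fibroblast markers all 10 were expressed, with summed levels from 34084 to 35969 CPM (counts scaled to a common library size) in lone and from 14238 to 15938 CPM in cocultured libraries. The collagen genes Col1a1, Col1a2 and Col3a1 held most of that sum and fell, whereas Dcn rose 2.83-fold. Lum was 2.37-fold lower, Vim and Thy1 were both 1.44-fold lower, and Pdgfra and Pdgfrb were both 1.27-fold lower. S100a4 did not pass the test (log2 fold change 0.32, edgeR's adjusted p = 0.319). Il17a and Il17f had 0 counts in all 6 libraries, and the 10 T cell markers summed to at most 3.97 CPM. The 12 macrophage markers summed to between 58.7 and 61.8 CPM in lone and between 19.9 and 21.1 CPM in cocultured libraries. Among them Adgre1 (173 counts) and Ptprc (37 counts) were counted in lone libraries and were at 0 in every cocultured library. Cd68 was 1.9-fold, Csf1r 3.46-fold and Lyz2 8.3-fold lower, whereas Cd14 stood at 11.2 CPM in both groups. The other 6 had too few counts to be tested. Of 8 neutrophil markers, 5 (S100a9, Elane, Retnlg, Csf3r and Cxcr2) were at 0 in all libraries. The 6 endothelial markers summed to between 6.79 and 7.52 CPM in lone and between 1.60 and 2.75 CPM in cocultured libraries, and the 8 epithelial markers to 19.2 to 21.0 CPM and 3.58 to 4.56 CPM. Of the endothelial sum Kdr held most (5.55 against 0.126 CPM), while Pecam1 stood at 1.24 and 1.32 CPM and Tek at 0.215 and 0.615 CPM. Most of the epithelial sum was Krt19, at 15.3 against 2.47 CPM. The part of cells other than fibroblasts in the results was not tested. In bulk RNA, fewer cells of a type and less RNA per cell cannot be told apart.

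Coculture was accompanied by higher transcript levels of 4 MMP genes (Mmp13, Mmp8, Mmp10 and Mmp16) and by lower levels of Timp3, the procollagen proteinases Adamts2 and Adamts3, Adamts12, Adamts8, Adamtsl1, Adamtsl3, Mmp12, Mmp15 and Mmp27. Of the 51 members, 36 had enough counts to be tested. Past an adjusted p of 0.05 and a fold change of 2 (the calling threshold, by edgeR's quasi-likelihood test), 4 members were higher and 10 lower with Th17 cells. These 14 members are 38.9% of those tested, where 11.6% of all 13088 genes tested were past the same threshold (3.87% higher and 7.78% lower). A further 13 members had an adjusted p below 0.05 within a 2-fold difference, 3 of them higher and 10 lower. Of these 13, Mmp3, Adamts4, Adamts6, Adamts7, Adamts10 and Adamtsl4 exceeded 0.05 under at least 1 alternative (highest adjusted p between 0.0502 and 0.102, by edgeR, DESeq2 or limma). Without the fold limit, 27 of the 36 (75%) passed, beside 37.1% of all genes. The median log2 fold change of the tested members was −0.30, and that of all genes was 0.00. For 28 of the 36 members the lowest library of one group exceeded the highest of the other on the CPM scale, beside 50.4% of all genes. Past the threshold upward were 4 of the 17 MMP genes tested and 0 of the 12 ADAMTS genes tested, beside 3.87% of all genes. At that share, 0 of 12 is no sign of a shortfall. Downward, 3 MMP and 4 ADAMTS genes passed, beside 7.78% of all genes. The highest log2 fold change among the ADAMTS genes was that of Adamts9, at 0.11 (SE 0.118, edgeR's adjusted p = 0.501).

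**Figure D1:**
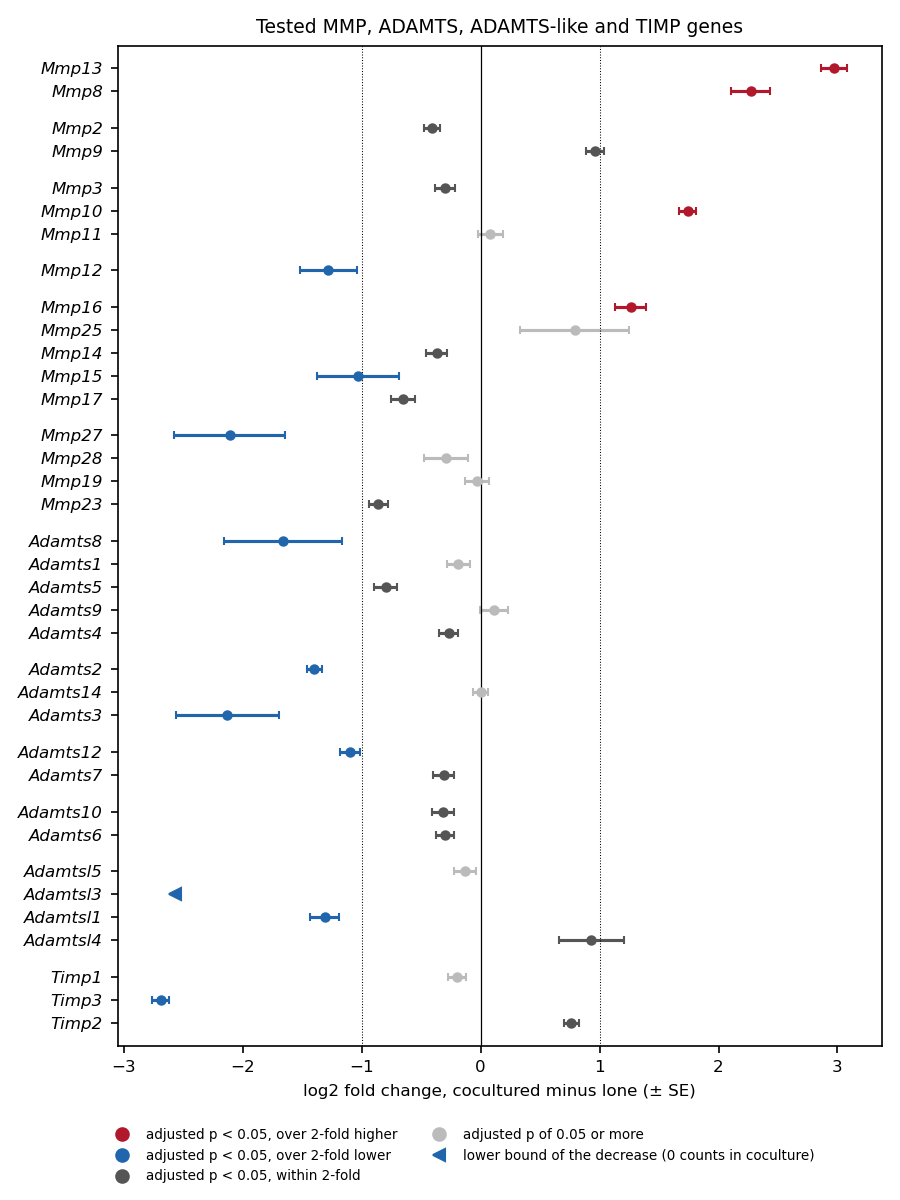
Log2 fold change (cocultured minus lone, x axis) of the 36 tested members, grouped by role from collagenases at the top to TIMPs at the bottom, with SE whiskers and dotted lines at 2-fold. The 4 red points are MMP genes to the right of the upper line, and the 10 blue symbols lie to the left of the lower line, with Timp3 at −2.69 and Adamtsl3 drawn as a bound because it had 0 counts in coculture.

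The collagenases cut the triple helix of fibrillar collagen. Mmp13, the main interstitial collagenase of rodents (ENSMUSG00000050578, chromosome 9, 7272514 to 7283333, plus strand), had 644, 565 and 584 counts without Th17 cells and 4716, 4281 and 5787 with them. Each cocultured library lay far above each lone library. Scaled to library size by the trimmed mean of M values (TMM), the level rose 7.83-fold, from 48.0 ± 2.93 to 376 ± 56.3 CPM (SD, n = 3 each). Its log2 fold change of 2.97 (SE 0.112, edgeR's adjusted p = 1.28e-07) was the highest of the 36 members. Mmp8, a collagenase best known from neutrophils (ENSMUSG00000005800, chromosome 9, 7558429 to 7568486), had 66, 42 and 47 counts in lone and 253, 256 and 276 counts in cocultured fibroblasts. It rose 4.83-fold, which is 2.27 on the log2 scale (SE 0.162, edgeR's adjusted p = 6.71e-06). The groups did not overlap, and neutrophil markers summed to at most 0.446 CPM in the cocultured libraries, where Mmp8 stood at 18.8 to 21.0 CPM. Which cells the Mmp8 transcripts came from was not tested. The rodent genes related to human MMP1 were near the floor of detection. Mmp1a was at 0 in all lone libraries and had 1, 3 and 2 counts after coculture, and Mmp1b had 14, 1 and 5 counts against 9, 7 and 25. Neither was tested, and because they are close paralogs, fragments that match both could have been assigned to either.

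Among the stromelysins, which degrade proteoglycans and activate procollagenases, only Mmp10 passed the threshold. Mmp10 (stromelysin-2, ENSMUSG00000047562, chromosome 9, 7502352 to 7510238) had 1159, 1157 and 973 counts in lone and 3792, 3656 and 4061 in cocultured fibroblasts. It rose 3.33-fold, from 87.9 ± 4.91 to 293 ± 14.3 CPM (log2 fold change 1.74, SE 0.0692, edgeR's adjusted p = 1.63e-07). Mmp3 (stromelysin-1), which is close to Mmp10 in sequence and lies in the same gene cluster, was lower within 2-fold. Its levels were 82.6, 78.6 and 73.6 CPM in lone and 58.3, 62.8 and 70.3 CPM in cocultured libraries, a log2 fold change of −0.30 (SE 0.0871, edgeR's adjusted p = 0.0256). The highest cocultured value lay just under the lowest lone value. Mmp11 (stromelysin-3) overlapped between groups, at 37.2 to 39.7 CPM against 35.4 to 46.6 CPM (log2 fold change 0.08, SE 0.106, edgeR's adjusted p = 0.607). Exons of Mmp11 overlap those of Chchd10 on the opposite strand. The difference between the log2 fold changes of Mmp10 and Mmp3 was itself not tested.

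Mmp13, Mmp10, Mmp8 and Mmp3 belong to a cluster of 10 MMP genes on mouse chromosome 9, between 7272514 and 7699585 (427 kb, GRCm38), with no other protein-coding gene annotated inside it. In order along the chromosome the members are Mmp13, Mmp12, Mmp1b, Mmp3, Mmp1a, Mmp10, Mmp8, Mmp27, Mmp20 and Mmp7. Of these, 3 rose (Mmp13, Mmp10 and Mmp8), 2 fell (Mmp12 and Mmp27), Mmp3 was lower within 2-fold and 4 were not tested. Among all genes tested, 3.87% were past the threshold upward and 7.78% downward. Higher and lower genes were interspersed along the cluster, and the adjacent genes Mmp8 and Mmp27 lay on opposite sides of 0. Mmp27, a little studied member (chromosome 9, 7571396 to 7581885), had 11, 11 and 16 counts in lone and 2, 3 and 4 in cocultured fibroblasts. Its log2 fold change was −2.11 (SE 0.468, edgeR's adjusted p = 0.00674), on few counts in both groups. Mmp12, the macrophage metalloelastase (chromosome 9, 7344381 to 7369499), fell from 71, 70 and 52 counts to 20, 30 and 33 counts. On the CPM scale this was 5.14 ± 0.649 against 2.12 ± 0.552, a log2 fold change of −1.28 (SE 0.238, edgeR's adjusted p = 0.00262). The summed macrophage markers were lower in the same libraries, as given above, and their part in the Mmp12 difference was not tested. Exons of Mmp12 overlap those of Mmp1b on the opposite strand, and it was not stated whether counting used strand.

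**Figure D2:**
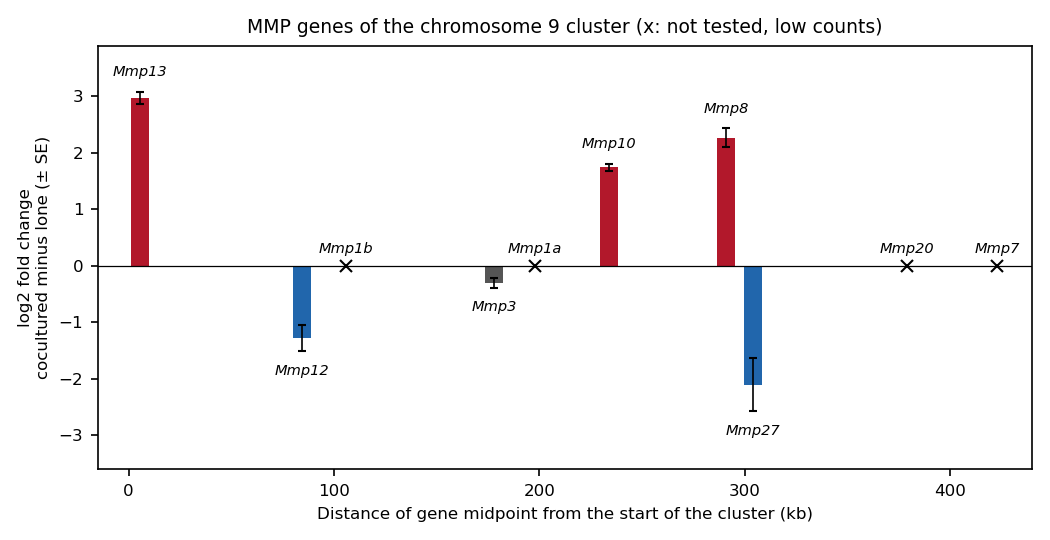
Log2 fold change (cocultured minus lone, y axis, bars with SE) of the chromosome 9 MMP genes against the distance of the gene's midpoint from the start of the cluster in kb (x axis), with crosses for genes that were not tested. Mmp13, Mmp10 and Mmp8 stand above 0 and Mmp12, Mmp3 and Mmp27 below it.

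The stretch before the start site differed between these genes. Promoters of the cluster are known to hold binding letters for the transcription factor AP-1 (Fos and Jun dimers) close to a TATA box, so windows from 250 bases before to 50 after the start site (RefSeq, GRCm38.p6) were searched on both strands. The search used TGANTCA for AP-1, TATAAA for the TATA box and GGAATG for the TEAD factors that the study followed in tubular cells. A window was matched for 36 of the 51 members, taking the start site nearest to where the gene table has the gene begin (within 329 bases, except for Adamts20). AP-1 letters occurred in 7 of the 36, all of them in the chromosome 9 cluster (Mmp13, Mmp1b, Mmp1a, Mmp3, Mmp10, Mmp7 and Mmp20), and in 7.81% of all 32851 windows. TATA letters occurred in 11 members, beside 13.6% of all windows, and TEAD letters in 2 (Adamts13 and Timp1), beside 14.7%. Of the higher genes with a window, 2 of 3 held AP-1 letters (Mmp13 and Mmp10, not Mmp8), and of the lower genes 0 of 8 did. At the AP-1 share of 7.81% of all windows, 0 of 8 is no sign of a shortfall. TATA letters were in 3 of these 3 higher genes and in 0 of the 8 lower genes. These higher genes all lie in the cluster, but of the lower genes with a window only Mmp12 and Mmp27 do. The 150 bases before the start site are shown for 5 cluster genes to compare neighbours that moved differently, and for Timp3. Capitals mark the AP-1 letters.
Mmp13: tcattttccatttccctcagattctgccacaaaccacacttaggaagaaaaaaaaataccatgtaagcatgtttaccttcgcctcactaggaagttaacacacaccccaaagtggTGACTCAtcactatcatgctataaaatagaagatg
Mmp10: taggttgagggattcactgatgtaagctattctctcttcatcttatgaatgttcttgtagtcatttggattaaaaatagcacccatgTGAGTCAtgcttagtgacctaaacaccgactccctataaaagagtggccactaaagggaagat
Mmp3: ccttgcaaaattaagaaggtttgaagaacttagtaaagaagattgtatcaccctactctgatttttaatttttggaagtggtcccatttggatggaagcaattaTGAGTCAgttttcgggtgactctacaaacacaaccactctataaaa
Mmp8: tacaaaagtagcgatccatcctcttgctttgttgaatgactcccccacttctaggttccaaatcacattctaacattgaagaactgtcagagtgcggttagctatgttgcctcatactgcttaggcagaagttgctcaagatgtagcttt
Mmp12: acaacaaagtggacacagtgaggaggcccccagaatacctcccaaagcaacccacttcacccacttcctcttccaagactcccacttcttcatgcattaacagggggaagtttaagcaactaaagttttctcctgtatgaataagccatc
Timp3: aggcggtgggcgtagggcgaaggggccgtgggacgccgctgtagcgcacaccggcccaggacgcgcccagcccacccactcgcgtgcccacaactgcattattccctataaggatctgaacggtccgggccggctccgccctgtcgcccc
These stretches lie on the plus strand at chr9:7272364-7272513, chr9:7502192-7502341, chr9:7445672-7445821, chr9:7558279-7558428, chr9:7344247-7344396 and chr10:86300262-86300411. The AP-1 letters began 35 bases before the start site in Mmp13, 63 in Mmp10 and 46 in Mmp3. Thus Mmp3, which was lower within 2-fold, held the same letters (TGAGTCA) as Mmp10, which rose. Mmp8 rose without a match in its window. A match is a description of the letters only.

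The gelatinases, which degrade denatured collagen and basement membrane collagen, moved in opposite directions. Mmp9 (gelatinase B, ENSMUSG00000017737, chromosome 2, 164940780 to 164955850) stood at 125, 126 and 131 CPM in lone and at 244, 271 and 228 CPM in cocultured libraries. The groups were well apart, yet the 1.94-fold difference stayed just within the fold limit (log2 fold change 0.96, SE 0.0746, edgeR's adjusted p = 1.16e-05). With scaling by library size only, the log2 fold change was 1.02, and without cocultured replicate 3 it was also 1.02, both past the limit. Mmp9 is also made by macrophages and neutrophils, whose summed markers were lower or near 0 in the cocultured libraries, as given above. Their part in the Mmp9 difference was not tested. Mmp2 (gelatinase A, ENSMUSG00000031740, chromosome 8, 92827328 to 92853417), which resident fibroblasts make constitutively, was lower, at 789, 829.5 and 805 CPM against 593, 655 and 571 CPM. Its log2 fold change was −0.41 (SE 0.064, edgeR's adjusted p = 0.00092), and every cocultured library lay below every lone library.

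Membrane-type MMPs act at the cell surface. Mmp14, the activator of pro-MMP2 (ENSMUSG00000000957, chromosome 14, 54431612 to 54441265), had by far the highest level of the group, at 714 to 780.5 CPM in lone and 499 to 628 CPM in cocultured libraries. It was lower within 2-fold (log2 fold change −0.37, SE 0.0886, edgeR's adjusted p = 0.00975), as was Mmp17, at −0.65 (SE 0.102, edgeR's adjusted p = 0.00105). Mmp16, another membrane-bound activator of pro-MMP2 (chromosome 4, 17852893 to 18119145), rose from 80, 75 and 61 counts to 188, 163 and 192 counts, or 2.39-fold (log2 fold change 1.26, SE 0.134, edgeR's adjusted p = 9.3e-05). Per gene length its level remained low, at 0.482 FPKM (fragments per gene divided by its length and by the depth of the library) in lone and 1.21 FPKM in cocultured fibroblasts, beside 127 and 103 FPKM for Mmp14. Mmp15 had 15, 14 and 18 counts in lone and 9, 9 and 6 in cocultured libraries. Its log2 fold change of −1.03 (SE 0.347, edgeR's adjusted p = 0.0435) was at the threshold and rested on few counts. The call was lost when any 1 library was left out, with adjusted p between 0.0712 and 0.16, and with DESeq2 (adjusted p = 0.18). Mmp25 did not pass (0.79, SE 0.457, edgeR's adjusted p = 0.209), and Mmp24 was at 0 counts in all libraries.

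Of the remaining MMP genes, Mmp23, a small membrane-anchored member, was lower within 2-fold, with 52.4 to 56.3 CPM in lone and 28.2 to 31.1 CPM in cocultured libraries (log2 fold change −0.86, SE 0.0782, edgeR's adjusted p = 3.34e-05). Mmp19 (−0.03, edgeR's adjusted p = 0.873) and Mmp28 (−0.29, edgeR's adjusted p = 0.254) overlapped between groups. Exons of both genes overlap those of other genes on the opposite strand. Mmp7 and Mmp20, which are typical of epithelium and enamel, were at 0 in all libraries, and Mmp21 had 1 count in all.

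Levels per gene length allow the MMP transcripts to be compared, as far as the length used for each gene fits its transcripts. The lengths implied by the deposited FPKM were, for example, 2675 bases for Mmp13 and 5773 for Mmp14. In lone fibroblasts the order by FPKM was Mmp2 (260.1 ± 6.86), Mmp14 (127 ± 5.89), Mmp10 (50.0 ± 2.66), Mmp3 (42.6 ± 2.30), Mmp9 (31.6 ± 0.984) and Mmp13 (17.6 ± 1.08), with no overlap between neighbours. In cocultured fibroblasts it was Mmp2 (204 ± 13.3), Mmp10 (174 ± 9.38), Mmp13 (144 ± 22.4), Mmp14 (103 ± 12.0), Mmp9 (64.1 ± 5.23) and Mmp3 (36.3 ± 3.6), where the ranges of Mmp10 and Mmp13 overlapped. By FPKM, Mmp13 thus passed Mmp14, Mmp9 and Mmp3. On the CPM scale, cocultured Mmp13 (mean 376) passed Mmp9 (248) and Mmp3 (63.8) but stayed below Mmp14 (581). Mmp13 and Mmp10 together made up 12.3%, 11.7% and 11.3% of the summed MMP FPKM in lone libraries and 40.1%, 38.1% and 45.3% in cocultured libraries. The share of Mmp2 and Mmp14 together went from 66.2%, 68.2% and 67.7% to 41.0%, 42.3% and 36.1%. The summed FPKM of all 23 MMP genes was 565, 586 and 574 in lone and 753, 779 and 782 in cocultured libraries, so the pool was larger in each cocultured library. FPKM values carry no TMM factor, and shares within a library do not depend on it. Orders, sums and shares across genes do depend on the gene lengths.

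**Figure D3:**
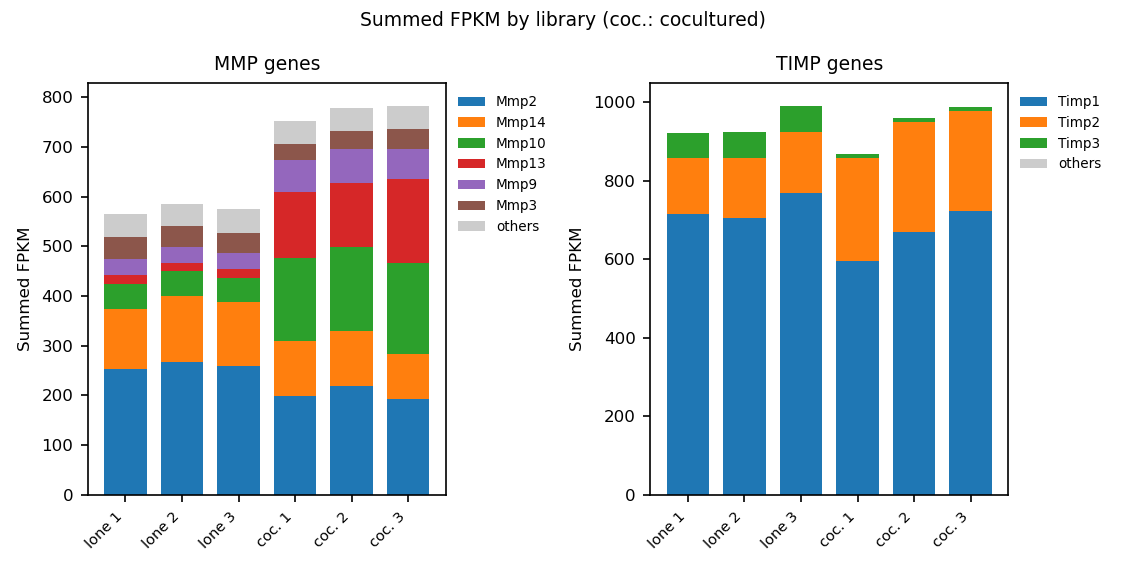
Summed FPKM (y axis) of MMP genes (left) and TIMP genes (right) in each library (x axis), stacked by gene. The red and green blocks of Mmp13 and Mmp10 widen from 11.3% to 12.3% of the MMP total in lone libraries to 38.1% to 45.3% in cocultured libraries, and the Timp3 block shrinks to at most 1.25% of the TIMP total.

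The TIMP genes did not move together. Timp3 (ENSMUSG00000020044, chromosome 10, 86300372 to 86349506) had 7607, 7684 and 7070 counts in lone and 1287, 1253 and 1115 in cocultured fibroblasts. The spread within each group was small beside the gap between them. Timp3 fell 6.44-fold, from 598 ± 8.34 to 93.0 ± 7.20 CPM (SD, n = 3 per group, log2 fold change −2.69, SE 0.0709, edgeR's adjusted p = 2.76e-08). Timp2, which blocks MMP2 and also takes part in its activation at the cell surface (ENSMUSG00000017466, chromosome 11, 118301069 to 118355740), had 7682, 8106 and 7744 counts in lone and 14130, 14376 and 13395 counts in cocultured libraries. It was 1.69-fold higher, within the fold limit (log2 fold change 0.76, SE 0.0626, edgeR's adjusted p = 1.70e-05). Timp1, the inducible soluble inhibitor (ENSMUSG00000001131, chromosome X, 20870166 to 20874735), stood at 1014, 999.9 and 1082 CPM in lone and at 805, 911 and 972 CPM in cocultured libraries. These ranges did not overlap, but the test did not pass (log2 fold change −0.20, SE 0.0749, edgeR's adjusted p = 0.0606), and without cocultured replicate 3 it did (−0.26, edgeR's adjusted p = 0.0133). Timp4, with 0 in all lone libraries and 1, 4 and 3 counts in cocultured libraries, had too few to test. Timp1, Timp3 and Timp4 each lie within a synapsin gene on the opposite strand (Syn1, Syn3 and Syn2), and for Timp3 and Timp4 annotated exons overlap as well.

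By FPKM, Timp1 and Timp2 were the abundant inhibitors in both groups, and the TIMP total differed little. On the CPM scale, Timp3 (mean 598) was close to Timp2 (630) in lone libraries. The summed TIMP FPKM was 921, 925 and 990 in lone and 868, 960 and 988 in cocultured libraries, and these ranges overlapped. Timp3 accounted for 6.56% to 7.10% of that sum in lone and for 0.977% to 1.25% in cocultured libraries, while the share of Timp2 went from between 15.4% and 16.5% to between 25.9% and 30.2%. The ratio of summed MMP to summed TIMP FPKM was 0.613, 0.633 and 0.580 in lone and 0.867, 0.812 and 0.791 in cocultured libraries. Every cocultured library thus held more MMP FPKM per FPKM of TIMP than every lone library. Set against Timp3 alone, Mmp13 went from 0.248 to 0.286 FPKM per FPKM of Timp3 to between 11.5 and 17.5. The size of these ratios depends on the gene lengths behind FPKM, which were 2675 bases for Mmp13 and 9033 for Timp3. As mean CPM, Mmp13 stood at 48.0 against 598 for Timp3 in lone and at 376 against 93.0 in cocultured libraries. Transcript ratios say nothing of enzyme activity, which depends on activation of the proenzymes.

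**Figure D4:**
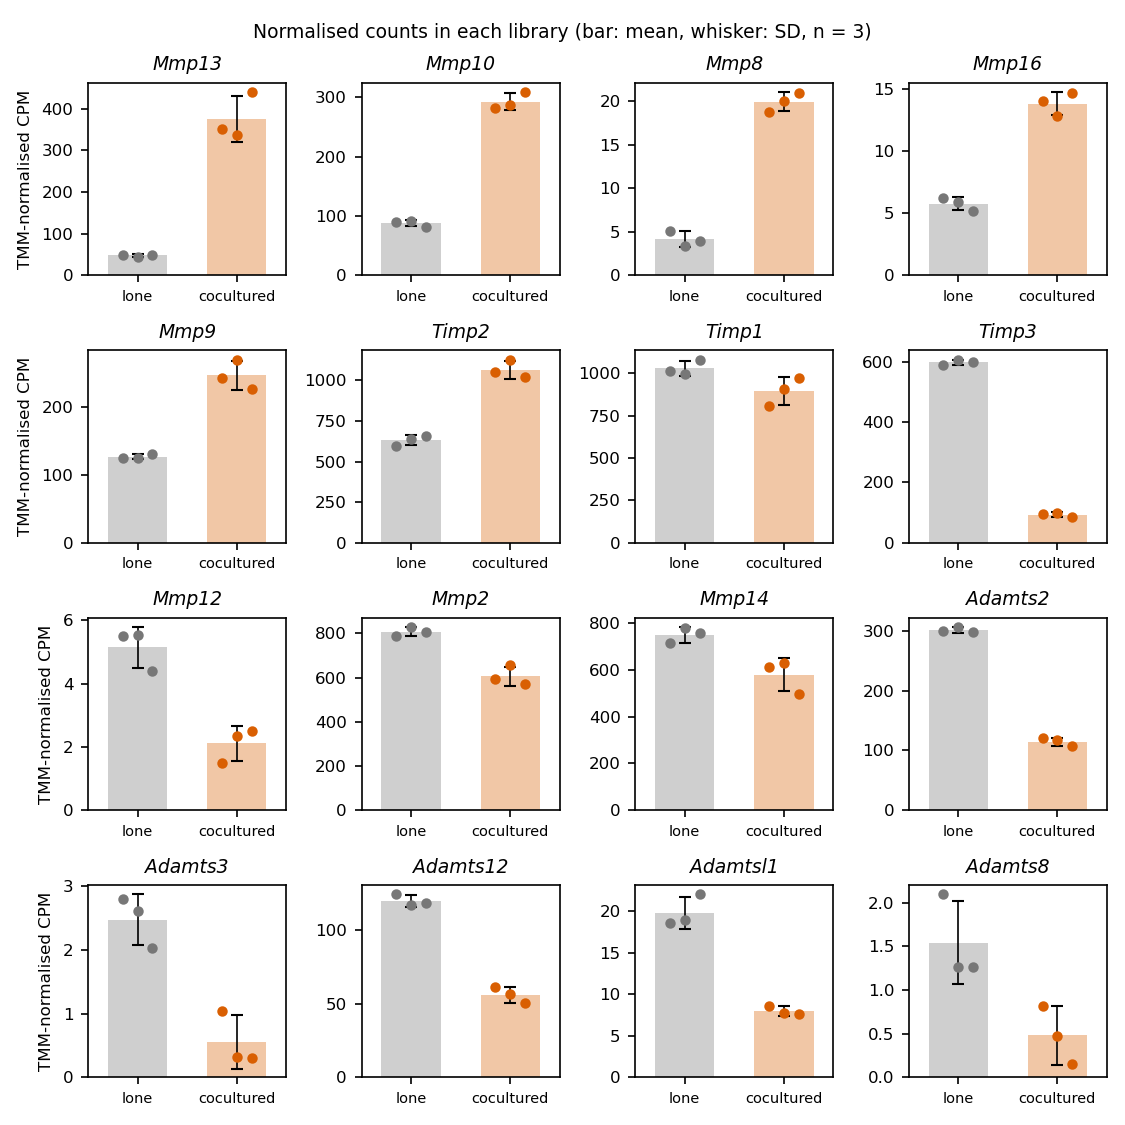
TMM-normalised CPM (y axis, each panel from 0) of 16 members in the 3 lone and 3 cocultured libraries (points), with group means as bars and SD as whiskers. Mmp13, Mmp10, Mmp8, Mmp16, Mmp9 and Timp2 are higher in all cocultured libraries and the other 10 genes are lower, with the closest groups for Timp1.

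The procollagen N-proteinases remove the amino-terminal propeptide of fibrillar procollagens. Adamts2, the main enzyme for type I procollagen (ENSMUSG00000036545, chromosome 11, 50602084 to 50807573), had 3858, 3886 and 3537 counts in lone and 1614, 1488 and 1404 in cocultured fibroblasts. It fell from 302 ± 4.48 to 115 ± 6.90 CPM (log2 fold change −1.40, SE 0.0641, edgeR's adjusted p = 3.77e-07). Adamts3, which processes type II procollagen and the lymphatic growth factor VEGF-C (chromosome 5, 89677087 to 89883334), fell from 36, 33 and 24 counts to 14, 4 and 4 counts. Its log2 fold change was −2.13 (SE 0.435, edgeR's adjusted p = 0.00436), or −2.96 without cocultured replicate 1, the library with 14 counts. Adamts14, the third enzyme of this group, stood at 110.4 to 117 CPM in lone and 109.5 to 119 CPM in cocultured libraries. The group means were both 114 CPM, with a 95% confidence interval of the log2 fold change from −0.14 to 0.14 (edgeR's adjusted p = 0.998). By FPKM, Adamts14 (19.6 ± 0.762) stood above Adamts2 (12.1 ± 0.681) in cocultured libraries. In lone libraries Adamts2 (30.6 ± 0.443 FPKM) stood above Adamts14 (18.8 ± 0.528 FPKM), without overlap in either group. On the CPM scale both genes overlapped in coculture, Adamts2 being at 107 to 120 CPM. Their FPKM order there rests on the implied lengths, 9652 bases for Adamts2 and 5924 for Adamts14. The collagen genes Col1a1 and Col3a1, whose products these enzymes process, fell in the same libraries (log2 fold changes −1.27 and −2.18, edgeR's adjusted p = 1.07e-06 and 1.37e-07).

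The proteoglycanases cleave aggrecan, versican and related molecules. Of the 7 genes, 5 were tested, and Adamts8 alone was past the threshold. Adamts8 (chromosome 9, 30942562 to 30963838) had 27, 16 and 15 counts in lone and 11, 6 and 2 in cocultured libraries (log2 fold change −1.66, SE 0.497, edgeR's adjusted p = 0.0274). The call was lost without lone replicate 1 (−1.38, adjusted p = 0.107), without cocultured replicate 2 (−1.64, adjusted p = 0.0767) and without cocultured replicate 3 (−1.24, adjusted p = 0.06), all by edgeR, and the value was −2.28 without cocultured replicate 1. An antisense gene overlaps its exons. Adamts15, which lies 20.1 kb from Adamts8, was below the count filter with 10, 7 and 6 counts in lone and 1, 2 and 0 in cocultured libraries. The abundant proteoglycanases differed less. Adamts5 (aggrecanase-2) stood at 64.6 to 68.7 CPM in lone and 34.5 to 43.8 CPM in cocultured libraries, lower within 2-fold (log2 fold change −0.80, SE 0.0986, edgeR's adjusted p = 0.000226). Adamts4 (aggrecanase-1) was at −0.27 (SE 0.082, edgeR's adjusted p = 0.0279). Adamts1, which is 55.1 kb from Adamts5, overlapped between groups at 91.6 to 106 CPM and 80.1 to 99.3 CPM (−0.19, edgeR's adjusted p = 0.155), and Adamts9 did so as well. Without cocultured replicate 3, Adamts1 was at −0.29 (edgeR's adjusted p = 0.0202). Adamts4 and Adamts9 overlap exons of other genes on the opposite strand.

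Of the pair that cleaves cartilage oligomeric matrix protein, Adamts12 (chromosome 15, 11064790 to 11346867) fell from 1600, 1480 and 1398 counts to 821, 719 and 661 counts. This was 119.8 ± 3.87 against 55.9 ± 5.40 CPM (log2 fold change −1.10, SE 0.0822, edgeR's adjusted p = 9.06e-06). Its partner Adamts7 was lower within 2-fold, at −0.31 (SE 0.0895, edgeR's adjusted p = 0.0239). Exons of Adamts7 overlap those of Tbc1d2b on the opposite strand. Adamts6 and Adamts10, which act on fibrillin-rich matrix and cell junctions, had log2 fold changes of −0.30 (edgeR's adjusted p = 0.0136) and −0.32 (edgeR's adjusted p = 0.0222). Adamts13, the plasma enzyme that cuts von Willebrand factor, Adamts18 and Adamts19 were at 0 in all libraries. Adamts16, Adamts17 and Adamts20 had at most 10 counts in any library.

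The ADAMTS-like genes encode matrix glycoproteins, several of which bind fibrillin microfibrils. Adamtsl1 (chromosome 4, 86053915 to 86428385) fell from 239, 240 and 261 counts to 116, 99 and 100 counts (19.9 ± 1.92 to 8.0 ± 0.545 CPM, log2 fold change −1.31, SE 0.123, edgeR's adjusted p = 4.06e-05). Adamtsl3 (chromosome 7, 82335694 to 82614450) had 17, 14 and 21 counts in lone libraries and 0 in each cocultured library. Against a floor of 3 counts per library, which corresponds to 0.223 to 0.236 CPM in the cocultured libraries, it was at least 5.93-fold lower (edgeR's adjusted p = 0.000684). Adamtsl4, which takes part in fibrillin deposition in the eye, was 1.91-fold higher, with 18, 25 and 19 counts against 38, 52 and 34 (log2 fold change 0.93, SE 0.272, edgeR's adjusted p = 0.0253). It passed the fold limit without lone replicate 2 (1.07), cocultured replicate 1 or cocultured replicate 3 (1.05), and its edgeR adjusted p exceeded 0.05 without lone replicate 1 (0.087), lone replicate 3 (0.0722) or cocultured replicate 2 (0.0914). Adamtsl5 overlapped between groups (−0.13, edgeR's adjusted p = 0.305), and Adamtsl2 had at most 3 counts in any library.

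Of the 15 members that were not tested, 6 were at 0 in all libraries and 9 had a count, the highest being 25 counts. When the filter on low counts was removed, Adamts15 was the one of these 9 to pass the threshold (log2 fold change −2.85, edgeR's adjusted p = 0.0254).

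Genes that activate, inhibit or clear these enzymes were examined in a list of 29 regulators, of which 25 were tested. Past the threshold, 2 were higher (Pcolce2 and Plau) and 5 lower (A2m, Thbs2, Plat, Adam8 and Adam12), and 9 more had an adjusted p below 0.05 within 2-fold. These 7 are 28.0% of the regulators tested, beside 11.6% of all genes, and the regulator log2 fold changes had a median of 0.07 over the 25 genes. Plau encodes urokinase, which generates plasmin, an activator of several pro-MMPs. It rose from 328, 333 and 331 CPM to 638, 751 and 904 CPM (log2 fold change 1.21, SE 0.11, edgeR's adjusted p = 3.36e-05). The other plasminogen activator, Plat, fell from 193 ± 6.96 to 44.0 ± 0.719 CPM (−2.13, SE 0.0626, edgeR's adjusted p = 4.09e-08). A2m, the broad proteinase inhibitor alpha-2-macroglobulin, fell from 28.3, 29.0 and 25.9 CPM to 0.520, 0.628 and 0.913 CPM, or 40.3-fold (edgeR's adjusted p = 7.99e-08). Thbs2, whose product binds MMP2 for uptake through the receptor LRP1, fell 4.43-fold (−2.15, SE 0.0725, edgeR's adjusted p = 7.61e-08), while Lrp1 itself was at 0.07 (edgeR's adjusted p = 0.454). The related Thbs1 was higher within 2-fold (0.53, SE 0.0633, edgeR's adjusted p = 0.000182). Mean levels were 14785 and 21408 CPM for Thbs1 in lone and cocultured libraries, and 1606 and 362 CPM for Thbs2. Reck, a membrane-anchored MMP inhibitor, was at 0.14 (edgeR's adjusted p = 0.349) and Bsg, an inducer of MMPs, at −0.01 (edgeR's adjusted p = 0.907). Furin, the convertase that cleaves the propeptides of membrane-type MMPs and ADAMTS enzymes, was 1.5-fold higher (0.58, SE 0.0654, edgeR's adjusted p = 0.000131).

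Around procollagen processing, Pcolce2, an enhancer of the C-proteinase, rose from 9.61 ± 1.18 to 59.9 ± 3.83 CPM (2.64, SE 0.11, edgeR's adjusted p = 2.14e-07). The related enhancer gene Pcolce was at a higher level in both groups and did not pass. It stood at 198 CPM in lone and 182 CPM in cocultured libraries (−0.12, edgeR's adjusted p = 0.205). The C-proteinase gene Bmp1 was lower within 2-fold (−0.37, edgeR's adjusted p = 0.00117) and the related Tll1 higher within 2-fold (0.77, edgeR's adjusted p = 0.00118). Of the ADAM proteinases, Adam12 (−1.61, SE 0.0696, edgeR's adjusted p = 2.67e-07) and Adam8 (−1.68, SE 0.255, edgeR's adjusted p = 0.000818) fell. Adam9 (0.1), Adam10 (−0.09) and Adam19 (0.07) did not pass (edgeR's adjusted p = 0.517, 0.257 and 0.43). Adam15 was higher within 2-fold (0.27, edgeR's adjusted p = 0.0071). Adam17, the tumour necrosis factor convertase that TIMP3 inhibits, was at −0.48 (SE 0.067, edgeR's adjusted p = 0.00051). Of 10 ADAMTS substrate genes, 4 were tested. Fbn2 (fibrillin-2) fell from 17.7 ± 2.21 to 0.685 ± 0.0576 CPM (−4.67, SE 0.194, edgeR's adjusted p = 2.06e-07), Vcan (versican) and Fbn1 (fibrillin-1) were lower within 2-fold (−0.75 and −0.69), and Cspg4 was at 0.17 (edgeR's adjusted p = 0.11). Acan, Comp and Ncan, which encode cartilage and brain substrates, had at most 1 count in all libraries together.

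**Figure D5:**
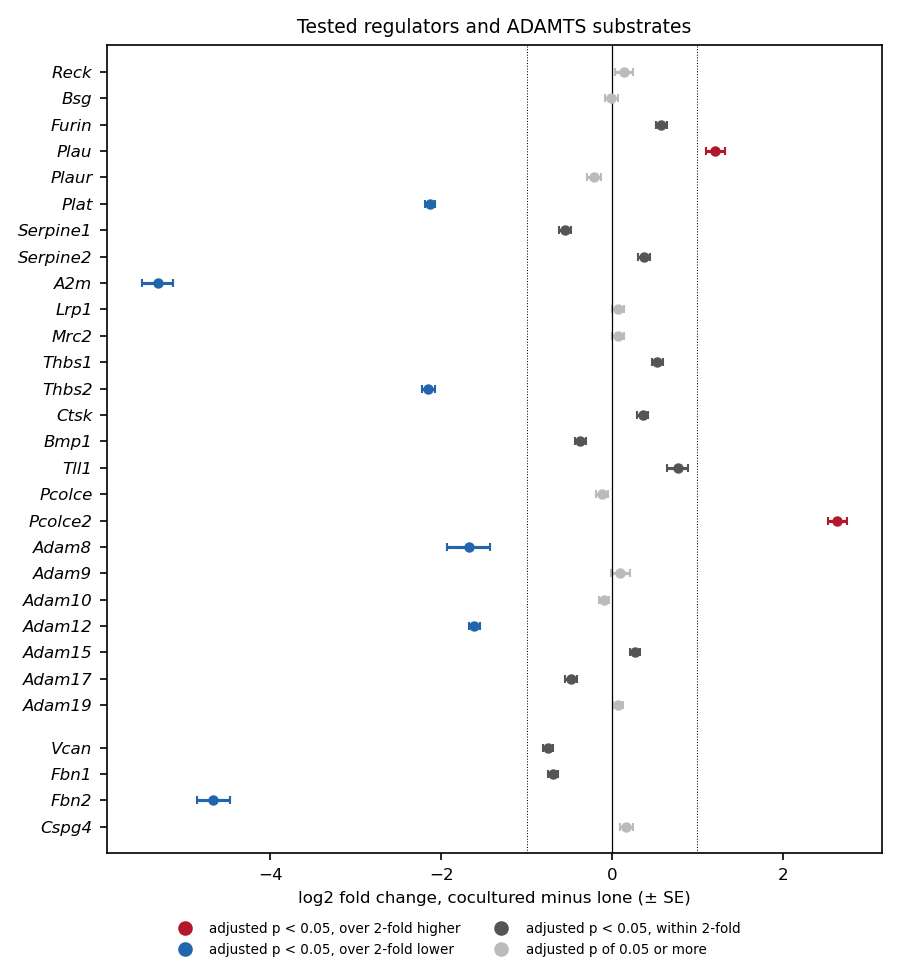
Log2 fold change (cocultured minus lone, x axis, with SE) of the 25 tested regulators and, below the gap, the 4 tested ADAMTS substrates, with dotted lines at 2-fold. A2m and Fbn2 lie farthest to the left, at −5.32 and −4.67, and Pcolce2 and Plau are the genes right of the upper line.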

How the data were processed

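RNA of 6 libraries was sequenced on an Illumina NovaSeq instrument after preparation with a VAHTS kit. According to the study's methods and processing notes, the authors removed low-quality reads (Seqtk), mapped the rest to mm10 (GRCm38) using HISAT2 2.0.4 and counted fragments per gene with StringTie 1.3.3b. They deposited raw counts per gene, and beside them FPKM values scaled to gene length and library total. Use of strand and the handling of fragments that fit several genes were not given in the sources used here. Of the gene identifiers, 34267 occur in GENCODE vM21, and 99.9% of these overlap their annotated position.

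Groups came from the sample titles and columns from the sample descriptions. The whole count table was fitted with edgeR 4.0.16 in R 4.3.3 (filterByExpr with minimum count 10, TMM, glmQLFit, glmQLFTest, Benjamini-Hochberg adjustment over 13088 genes), at the study's limits of 0.05 and a fold change above 2. The biological coefficient of variation was 11.6%. SEs were obtained as the absolute log2 fold change over the root of F. Library sizes for CPM included the TMM factor, and 3 counts correspond to 0.223 to 0.254 CPM. Floors cover counting error only, since fragments carry no molecular identifiers. No library was a copy of another (chi-square per gene of at least 6.38 within groups, where counting noise gives about 1).

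Every tested member is named. Members, roles and lists were chosen with earlier results of these data known. Alternatives were DESeq2 1.42.0, limma 3.58.1 on log2(FPKM + 1), other scalings and filters, glmTreat, no fold limit, leaving out each library and a replicate block. The tests were checked on simulated counts. A search of protein motifs was planned, but no protein table was used. Tables and figures were made with Python 3.11.15, pandas 2.3.3 and matplotlib 3.10.9.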

Additional observations from a re-analysis of the deposited data

How the results depend on the processing

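The 14 members past the threshold became 9 (4 higher, 5 lower) with at least 10 counts required in every library, 5 (3 higher, 2 lower) with limma on log2(FPKM + 1) and 6 (3 higher, 3 lower) with glmTreat, whose null hypothesis is a change of up to 2-fold. Without a fold limit there were 27 (7 higher, 20 lower). The stricter filter leaves fewer members to test, and the added 1 in log2(FPKM + 1) shrinks genes of low FPKM. Leaving out 1 library gave 12 to 14 members in all, 4 to 6 higher and 8 to 9 lower. Replicate numbers of the titles did not pair the libraries (correlations of deviations 0.0157, −0.0256 and −0.0036), and the replicate block gave 13 members (4 higher, 9 lower), all among the 14. Below the fold limit, the block took Timp1 under an adjusted p of 0.05 (0.0406) and Mmp3 over it (0.0525), and no other member crossed it apart from Mmp15. Mmp13, Mmp10, Mmp8, Timp3 and Adamts2 were past the threshold under the other scalings and filters, DESeq2, limma, the block and each left-out library. Mmp15 lost its call with library size only (edgeR's adjusted p = 0.0518), DESeq2, no filter, limma and the block (edgeR's adjusted p = 0.091). With limma, the log2 fold changes of Mmp16 (0.57), Adamts12 (−0.96), Adamtsl1 (−0.56) and Mmp12 (−0.31) came within the fold limit. So did those of Adamts3 (−0.38), Mmp27 (−0.28), Adamts8 (−0.21) and Adamtsl3 (−0.19). Of these, Adamts12 stood at 18.8 FPKM in lone and 9.17 FPKM in cocultured libraries. No member past the threshold changed sign under these alternatives, while 3 genes near 0 did. Adamts14, at −0.00, was at 0.00 with relative log expression factors, DESeq2, no filter or the stricter filter, 0.01 with upper quartile factors and 0.06 with library size only or limma, and from −0.03 to 0.03 without 1 library. Mmp19, at −0.03, was at 0.04 with library size only, 0.03 with limma and from −0.12 to 0.04 without 1 library, and Mmp11, at 0.08, from −0.03 to 0.17. The median of all genes was at 0.0038 with TMM and 0.067 with library size only. The cause was not tested. Depth limits statements on Mmp15, Mmp27, Adamts3, Adamts8, Adamtsl3 and Adamtsl4, whose counts were at most 52 in any library.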
